A study of Mus musculus with 10 samples.

Results

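Mitochondrial ribosomal protein genes were taken as the protein-coding genes whose symbol begins with Mrpl or Mrps followed by a digit, and 76 of the 22548 genes in the table met this rule. Of these, 47 are Mrpl genes and 29 are Mrps genes. By the protein's place in the assembled ribosome, 49 belong to the large subunit, which includes Mrps18a and Mrps30, and 26 belong to the small subunit. Mrps36 encodes a protein that is now counted with a dehydrogenase complex of the mitochondrial matrix and was placed in neither. The rule used symbols only and no measured value. All 76 genes had enough counts to be tested, with 303 to 4080 counts per gene and library.

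The osteocytes came from bone of male C57BL/6 mice that were 8 weeks old by the labels. The 5 MM mice carried the murine myeloma line vk12598, injected into the femur, and the 5 No MM mice carried no myeloma. By the paper, osteocytes were taken some weeks after the injection. Whether the age in the labels is that at injection or at harvest could not be told here. No mouse of either group had an engineered allele in the labels. Bone marrow was removed, the bone pieces were digested in turns with collagenase and EDTA, and each mouse gave 1 library of total RNA. The procedure has no sorting step, so each library can hold RNA of other bone and marrow cells, and fewer cells of a type cannot be told apart from less RNA per cell.

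Mitochondria carry their own ribosome, which makes the few proteins encoded by mitochondrial DNA, all of them parts of the oxidative phosphorylation complexes. The RNA of this ribosome is transcribed in the mitochondrion, whereas every one of its proteins is encoded in the nucleus, made in the cytosol and imported. Many mitoribosomal proteins have a bacterial counterpart, and others were acquired in the lineage that led to mammals. The ETS factor GABP, NRF1 and YY1 are known to bind promoters of nuclear genes for mitochondrial proteins.

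Promoters of 67 members were found in the RefSeq table of mouse promoters (GRCm38.p6), which holds 250 bases before and 50 bases after each start. Windows of 100 bases before to 30 bases after the start are shown for members whose levels are described below and which differ in these letters. Capitals mark CCGGAAG, the core letters of ETS sites, or GCATGCGC, the core letters of NRF1 sites, on either strand. The windows of Mrpl43, Mrpl17 and Mrpl52 belong to members lower in MM at an unadjusted p under 0.05 in edgeR, none of them after adjustment. Those of Mrpl33 and Mrpl1 belong to members that did not reach an unadjusted p under 0.05 in edgeR.
Mrpl43 (chr19:45006413-45006542, minus strand): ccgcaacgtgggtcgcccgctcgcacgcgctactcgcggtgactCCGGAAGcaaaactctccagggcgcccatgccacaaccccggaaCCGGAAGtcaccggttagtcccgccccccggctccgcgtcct
Mrpl17 (chr7:105811058-105811187, minus strand): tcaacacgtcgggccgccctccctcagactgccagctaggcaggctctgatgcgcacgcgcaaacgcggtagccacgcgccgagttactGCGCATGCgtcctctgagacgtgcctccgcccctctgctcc
Mrpl52 (chr14:54426809-54426938, plus strand): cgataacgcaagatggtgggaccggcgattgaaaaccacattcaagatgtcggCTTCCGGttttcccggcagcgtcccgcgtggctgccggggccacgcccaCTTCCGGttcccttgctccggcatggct
Mrpl33 (chr5:31613851-31613980, plus strand): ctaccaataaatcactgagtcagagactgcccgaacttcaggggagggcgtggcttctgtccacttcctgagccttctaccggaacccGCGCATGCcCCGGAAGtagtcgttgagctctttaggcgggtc
Mrpl1 (chr5:96210015-96210144, plus strand): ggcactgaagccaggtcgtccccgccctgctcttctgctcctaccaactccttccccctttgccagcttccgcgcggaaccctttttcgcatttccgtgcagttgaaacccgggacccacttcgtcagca

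The ETS letters CCGGAAG occurred in the promoter of 24 of these 67 members (35.8%), against 2030 of 12698 protein-coding genes in the table (16.0%). The NRF1 letters GCATGCGC occurred in 8 members (11.9%, against 4.99%), and the YY1 letters ANATGGCG in 10 members (14.9%, against 6.54%). In all, 35 members held at least 1 of the 3 motifs, and 4 held both the ETS and the NRF1 letters. Both strands were searched over the full 300 bases, and no motif holds another. In the windows shown, the ETS letters began 56 and 12 bases before the start of Mrpl43, and 47 bases before and 3 bases into the transcript of Mrpl52. In Mrpl33 the NRF1 and ETS letters lay next to each other, beginning 12 and 3 bases before the start, and in Mrpl17 the NRF1 letters began 11 bases before it. Most YY1 matches in the full promoters began 10 to 38 bases into the transcript, on the gene's own strand. Those of Mrpl36 and Mrps11 lay before the start, on the other strand. The YY1 letters hold ATG, and matches at a start codon were not separated. A match is a description of letters and was not tested as a site.

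Between 31099174 and 39466332 reads were counted per library. Immunoglobulin genes took 26.8% of the counts in No MM 3 and 29.3% in No MM 4, against 0.648% to 3.98% in the other 8 libraries. The 7 plasma cell markers summed to 9265 and 9283 CPM (counts scaled to a common library size) in these 2 libraries and to 583 to 1266 in the rest, and all 7 were detected in every library. In edgeR 7 of 7 were lower in MM at an unadjusted p under 0.05, against 10.3% of all genes. Without these 2 libraries 1 of 7 was lower, against 3.37%. Osteocyte markers such as Sost, Dmp1 and Mepe were detected in every library, with a summed level from 379 to 2612 CPM, lowest in No MM 4. Osteoblast markers summed to 2985 and 1782 CPM in No MM 3 and No MM 4 and to 12514 to 47263 in the rest. Neutrophil markers summed to 6873 and 8075 CPM in No MM 3 and No MM 4, to 9840 in MM 6 and to 22331 to 31880 elsewhere. The part of neutrophil RNA in the results below was not tested. The TMM factors, which rescale each library so that most genes keep their level, were 0.785 and 0.723 in No MM 3 and No MM 4, 0.845 in No MM 1 and 1.02 to 1.14 elsewhere. No MM 3 and No MM 4 thus stand apart. The labels call them control mice, yet their plasma cell markers lie above those of every MM library, at 695 to 1266 CPM. Whether these labels are right could not be checked here, and differences between MM and No MM depend on them, so results are given with and without these 2 libraries. Skeletal muscle markers were 8 of 8 below 0 in MM with 0 of 8 passing at an unadjusted p under 0.05 in edgeR, and their median log2 fold change was -0.78, or -1.04 without these libraries. Their summed level was 841 to 6784 CPM in No MM and 631 to 5845 CPM in MM, and the part of muscle RNA in the results below was not tested.

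As a share of all counts, the 76 members ranged from 0.262% (95% Wilson interval 0.260 to 0.264) in MM 10 to 0.359% (0.357 to 0.361) in No MM 1. The share was 0.302% ± 0.0329 in No MM and 0.281% ± 0.0195 in MM (mean ± SD, n = 5 each), and the groups overlapped. With immunoglobulin genes taken out of the total, the share was 0.369, 0.305, 0.406, 0.392 and 0.286% in No MM 1 to 5. On that scale it was 0.272, 0.286, 0.316, 0.286 and 0.266% in MM 6 to 10, where No MM 3 and No MM 4 held the 2 highest shares. Intervals cover counting error only.

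**Figure D1:**
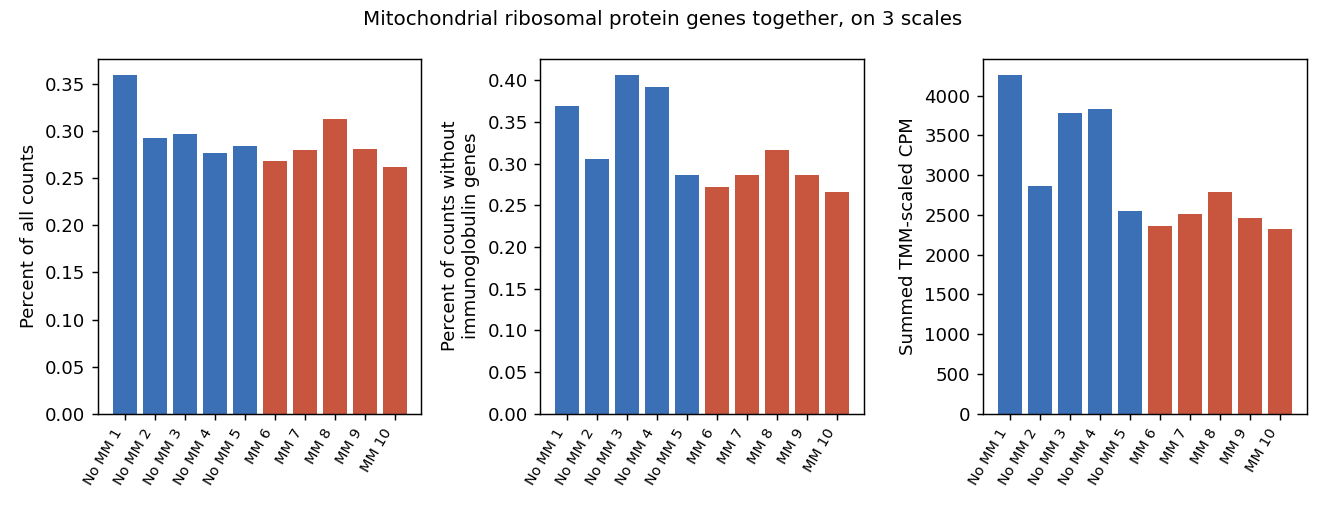
Bars give the 76 mitochondrial ribosomal protein genes together in each library (blue, No MM; red, MM), as percent of all counts, as percent of counts without immunoglobulin genes and as summed TMM-scaled CPM. No MM 1 is high on each scale, whereas No MM 3 and No MM 4 lie among the MM libraries at 0.297% and 0.277% of all counts and far above them at 3786 and 3839 summed CPM.

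On the TMM scale, which the tests below used, the members summed to 4256, 2869, 3786, 3839 and 2549.65 CPM in No MM 1 to 5 and to 2364, 2513, 2795, 2462 and 2326 CPM in MM 6 to 10. The MM libraries lay close together, and No MM 5 and No MM 2 were the nearest to them. MM 8 was the highest MM library and lay above No MM 5. Counted gene by gene, 74 members were above their own median over the 10 libraries in No MM 1, 61 in No MM 2, 69 in No MM 3, 67 in No MM 4 and 19 in No MM 5. In MM 6 to 10 the counts were 6, 13, 60, 11 and 0 members.

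**Figure D2:**
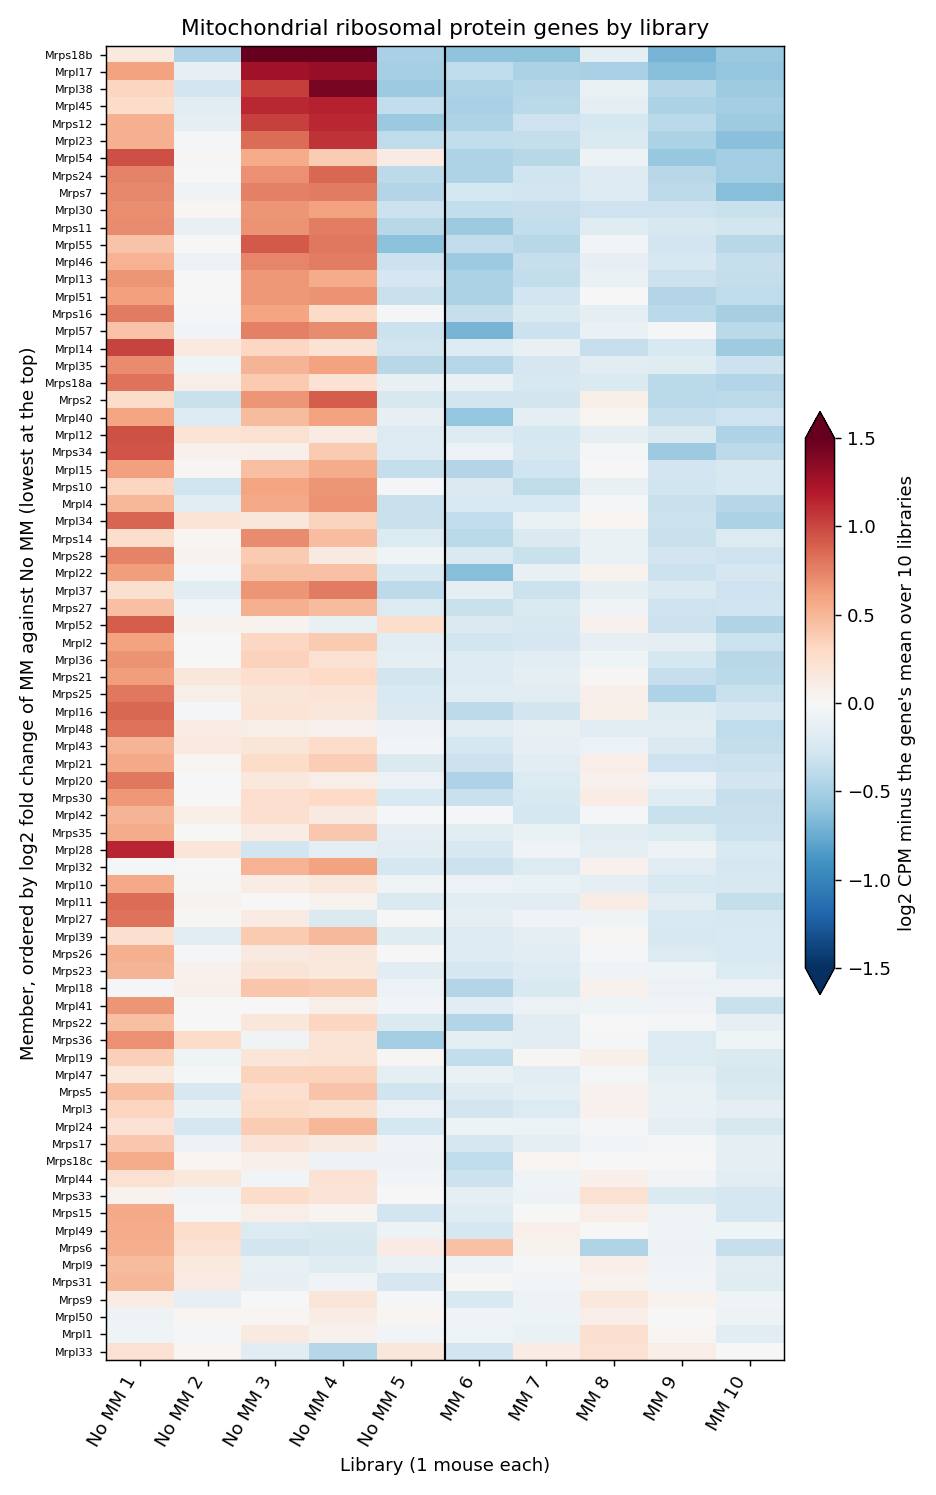
Each row is 1 of the 76 members and each column 1 library, with the color giving log2 CPM minus the gene's mean over the 10 libraries, and colors end at 1.5 in either direction. No MM 1, No MM 3 and No MM 4 are mostly red, and MM 10 is below the mean in 75 of 76 rows.

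The comparison of MM with No MM asks whether the mRNAs of the mitochondrial ribosome differed in the unsorted osteocyte libraries of myeloma-bearing mice. In edgeR's quasi-likelihood test, 75 of 76 members had a log2 fold change below 0, against 52.7% of the 16186 genes tested. At an unadjusted p under 0.05, 48 of 76 members (63.2%) were lower in MM, against 10.3% of all genes, and 0 of 76 were higher in edgeR or DESeq2, against 3.81% of all genes in edgeR. After Benjamini-Hochberg adjustment over all genes, edgeR called 0 members and 0% of all genes. DESeq2 called 1 member lower at an adjusted p under 0.05, Mrpl54, against 0.998% of all genes, and gave 45 members lower at an unadjusted p under 0.05, against 9.64%. The median log2 fold change of the members was -0.44, beside -0.027 over all genes tested, and the middle 50% of members lay between -0.59 and -0.30.

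Each p-value measures the spread between mice, with 1 library per mouse. Without No MM 3 and No MM 4, 24 of 76 members were lower at an unadjusted p under 0.05, against 3.37% of 16600 genes. In that fit 75 of 76 were again below 0, against 8559 of 16600 genes, with a member median of -0.39. It still held No MM 1, the library with the highest summed level of the members. In 38 of 76 members (50%) the MM mean of log2 CPM lay below both No MM 2 and No MM 5. Left out alone, MM 9 or MM 10 gave 31 members lower in edgeR, against 6.82% and 6.61% of all genes. With No MM 5 left out there were 54, against 14.5% of all genes. When libraries were scaled by their total counts alone, an alternative chosen after seeing the data, 8 of 76 members were lower at an unadjusted p under 0.05, against 2.77% of all genes. On that scale 28 of 76 members had a log2 fold change above 0, against 12337 of 16186 genes. The member median was then -0.087, while the median of all genes was 0.30. Relative to the median of all genes, the members' median was -0.42 with TMM, -0.37 without No MM 3 and No MM 4 and -0.39 with total counts.

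**Figure D3:**
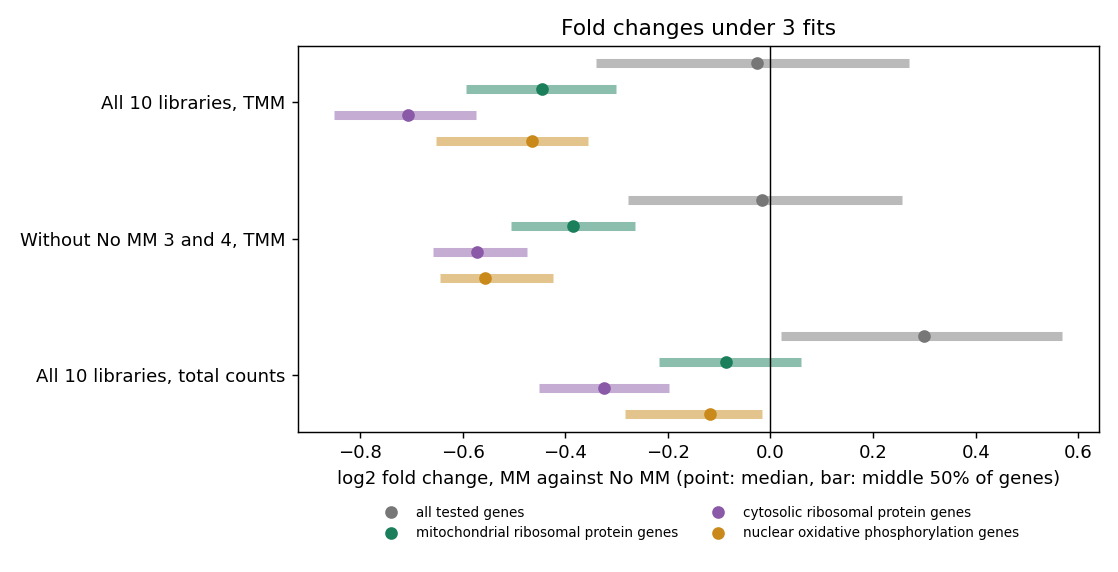
Points give the median log2 fold change of MM against No MM and bars the middle 50% of genes, for all tested genes and for 3 groups of genes under 3 fits. The members lie left of all tested genes in each fit, with medians of -0.44, -0.39 and -0.087, and the total-count fit moves all 4 sets to the right.

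Mrpl54 (ENSMUSG00000034932, chromosome 10, 81264713 to 81266934, minus strand), a large-subunit protein, had the smallest p of the members. Its level was 84.4, 43.6, 63.8, 56.1 and 47.1 CPM in No MM 1 to 5 and 31.2, 32.2, 41.0, 29.2 and 30.2 CPM in MM 6 to 10. The groups did not overlap, although MM 8 came close to No MM 2. Its log2 fold change was -0.85 (SE 0.20), with an adjusted p of 0.315 in edgeR and 0.0291 in DESeq2, and -0.86 (SE 0.23) without No MM 3 and No MM 4. Over the alternatives its adjusted p ran from 0.0291 to 0.656, and on total counts its log2 fold change was -0.49.

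The other members with every MM library below every No MM library were Mrps16, Mrpl43, Mrps28, Mrpl42, Mrpl48, Mrpl10 and Mrpl41. These 8 are 10.5% of the members, against 0.68% of all genes tested. Groups that do not overlap fix the unadjusted exact two-sided permutation p at 0.00794, the smallest that 5 mice against 5 can give. This p therefore adds nothing to the lack of overlap. Mrps16, a small-subunit protein kept from bacteria, was at 77.7, 44.7, 67.9, 55.2 and 44.4 CPM in No MM and 35.4, 38.8, 40.9, 34.2 and 31.8 CPM in MM. Its log2 fold change was -0.68 (SE 0.18) and -0.64 without No MM 3 and No MM 4.

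Mrpl43, a large-subunit protein without a bacterial counterpart, was at 63.7, 49.7, 51.0, 54.3 and 43.5 CPM in No MM and 37.4, 41.2, 42.1, 38.6 and 34.9 CPM in MM. The distance between No MM 5 and MM 8, the nearest libraries, was small beside the range of either group. Its log2 fold change was -0.43 (SE 0.14), and -0.085 on total counts. For the small-subunit gene Mrps28 the ranges were 25.9 to 45.4 CPM in No MM and 21.5 to 25.2 in MM, with a log2 fold change of -0.53 (SE 0.17). For Mrpl42 of the large subunit they were 57.2 to 82.4 and 45.8 to 57.0 CPM, with a log2 fold change of -0.40 (SE 0.14).

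In Mrpl48, Mrpl10 and Mrpl41 the gap was also narrow. Mrpl10, which forms the base of the stalk that contacts translation factors, ranged from 46.2 to 71.3 CPM in No MM and from 40.6 to 45.5 in MM. The difference was -0.34 on the log2 scale (SE 0.14), and 0.0089 on total counts. Mrpl48 ranged from 40.7 to 75.8 CPM in No MM and from 33.2 to 39.8 in MM. Mrpl41 ranged from 30.5 to 49.5 and from 24.9 to 30.1 CPM, and its edgeR p was 0.0956, so that it did not pass although its groups were apart. In 8 of 8 of these genes No MM 1 was the highest library. The separation held on the TMM scale, since on total counts 0 of 76 members had groups that did not overlap with MM below, against 0.0865% of all genes, and Mrpl41 was then at 0.040.

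**Figure D4:**
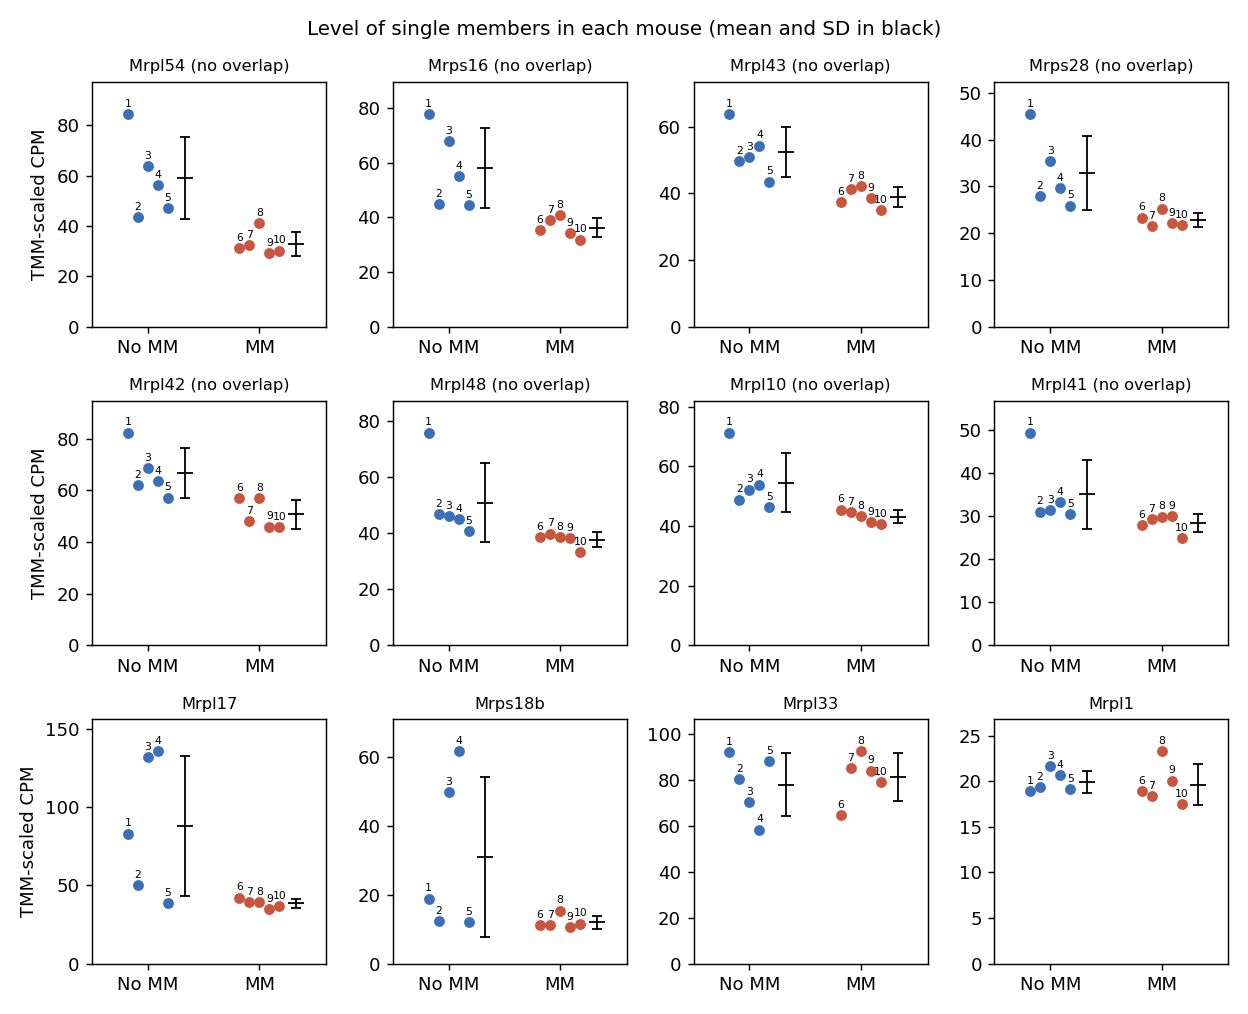
Each panel shows 1 member, each point 1 mouse with its number, and the black mark the group mean with its SD (n = 5), as TMM-scaled CPM from 0. In the 8 members marked as having no overlap every MM point lies below every No MM point, Mrpl17 and Mrps18b are high in No MM 3 and No MM 4, and in Mrpl33 and Mrpl1 the groups overlap throughout.

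The members showed visibly different patterns within No MM. In 22 of 76 members (28.9%) No MM 3 and No MM 4 were both above the other 8 libraries. This is close to the 24.0% of all genes tested, so the pattern is not particular to the members. The extreme of these 22 members was Mrps18b, 1 of several related S18 proteins in mammalian mitochondria, at 49.7 and 61.6 CPM in No MM 3 and 4. It was at 18.9, 12.3 and 12.1 CPM in No MM 1, 2 and 5 and at 10.5 to 15.4 CPM in MM. The log2 fold change of Mrps18b was -1.37 (SE 0.46), the largest in size among the members, and it was -0.30 (SE 0.22) without No MM 3 and No MM 4.

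Mrpl17, a large-subunit protein kept from bacteria, was at 132 and 136 CPM in No MM 3 and 4, at 83.1, 50.4 and 38.9 in No MM 1, 2 and 5 and at 35.1 to 42.2 in MM. This gave a log2 fold change of -1.19 (SE 0.32), and -0.60 (SE 0.23) without No MM 3 and No MM 4. Mrpl38 was at 64.7 and 84.9 CPM in the same 2 libraries against 21.6 to 39.5 in the other No MM mice and 21.9 to 29.6 in MM. This gave a log2 fold change of -0.96 (SE 0.35), and of -0.28 (SE 0.22) without them. Mrpl45 and Mrps12, whose product lies at the decoding center, had the same shape, with log2 fold changes of -0.94 and -0.93 that were -0.36 and -0.43 without No MM 3 and No MM 4. These are the libraries with the high plasma cell markers given above, and the part of those cells in the result was not tested.

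In 46 of 76 members (60.5%) the highest library was No MM 1, against 19.8% of all genes tested. Mrpl28 was at 102 CPM in No MM 1 and at 38.1 to 52.3 CPM in the other 9 libraries. Mrpl12, the stalk protein that binds translation factors, was at 147 CPM in No MM 1, at 65.9 to 89.0 in the other No MM mice and at 55.2 to 68.7 in MM. Mrpl14 was at 56.3 CPM there, at 22.5 to 34.6 in the other No MM mice and at 19.2 to 25.8 in MM. No MM 1 also had the highest summed level of erythroid markers (61281 CPM, against 944 to 30239 elsewhere) and of the 10 cell cycle genes (3671 CPM, against 1039 to 3032). Osteoclast markers (13776.5 CPM, against 824 to 8885) and endothelial markers (476 CPM, against 238 to 393) were highest there as well. No MM 3 and No MM 4, also high in the members, had 944 and 3218 CPM of erythroid markers and 1023 and 824 of osteoclast markers. Their cell cycle genes summed to 2069 and 1890 CPM and their endothelial markers to 359 and 238. The part of any of these cells in the members' level was not tested. Without No MM 1, 33 members were lower at an unadjusted p under 0.05 in edgeR, against 11.4% of all genes, with a median log2 fold change of -0.34.

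MM 10 and MM 6 held the lowest value of 27 and 26 of 76 members, against 7.7% and 13.5% of all genes tested. No MM 5 held that of 9 members, against 4.87% of all genes. In MM 8 the members stood higher than in the other MM mice, with 60 of 76 above their median. The spread was also unequal, since 69 of 76 members (90.8%) had a larger SD of log2 CPM in No MM than in MM, against 78.8% of all genes. The median SD was 0.36 in No MM and 0.15 in MM over the members, and 0.56 and 0.31 over all genes tested.

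Mrpl30 and Mrps24 completed the 5 members with the smallest p. Mrpl30, which like Mrps24 has a bacterial counterpart, was at 98.8, 62.2, 96.0, 92.4 and 48.9 CPM in No MM and at 47.0, 47.7, 49.1, 49.1 and 48.3 CPM in MM. The 5 MM libraries were nearly equal and No MM 5 lay among them. The difference was -0.72 on the log2 scale (SE 0.20), and -0.56 (SE 0.21) without No MM 3 and No MM 4. Mrps24 was at 69.2, 41.2, 66.5, 74.9 and 31.4 CPM in No MM and at 28.7 to 36.0 CPM in MM, with a log2 fold change of -0.83 (SE 0.23). The deposited span of Mrps24 overlaps Urgcp on the same strand, so reads of the 2 genes may not be separable.

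Few members showed nearly the same level in both groups. Mrpl33, a small protein of the large subunit, was at 92.1, 80.5, 70.5, 58.4 and 88.4 CPM in No MM and at 64.6, 85.4, 92.6, 84.1 and 79.3 CPM in MM. Its log2 fold change of 0.059 (SE 0.16) was the one value above 0 and was -0.12 without No MM 3 and No MM 4. Here No MM 3 and No MM 4 were low instead of high. Its deposited span overlaps Bre and Rbks, one of them on the same strand. Mrpl1, of the mobile stalk near the tRNA exit site, was at 18.9 to 21.7 CPM in No MM and 17.5 to 23.3 in MM, with a log2 fold change of -0.024 (SE 0.14).

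Mrpl50, Mrps9 and Mrpl1 varied least over the 10 libraries. Mrpl50 ranged from 29.7 to 34.1 CPM in No MM and from 29.8 to 33.6 in MM, and Mrps9 from 36.6 to 45.0 and from 33.9 to 44.6. On total counts the log2 fold changes of Mrpl50, Mrps9 and Mrpl1 were 0.28, 0.29 and 0.31, close to the 0.30 of all genes on that scale. A p above the threshold does not show that these genes had equal levels.

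Per length, the members spanned a wide range. Mrpl52 was highest at 137 ± 43.6 TMM-scaled CPM per kilobase of the deposited gene length (mean ± SD, n = 10), followed by Mrpl20 at 94.3 ± 25.4, Mrpl42 at 88.2 ± 16.9, Mrps16 at 83.2 ± 26.9 and Mrpl54 at 76.0 ± 29.5. The SDs of these 5 overlap their neighbors in the order. At the other end were Mrps25 at 4.99 ± 1.38, Mrpl47 at 5.08 ± 0.762, Mrpl1 at 5.56 ± 0.482, Mrps22 at 5.88 ± 1.09 and Mrps35 at 6.13 ± 1.29. The 5 highest have deposited lengths of 412 to 810 bases and the 5 lowest of 3296 to 6073 bases, against a median of 1408 over the members. When exon unions of GENCODE M21 (GRCm38) replaced the deposited lengths, 7 of the 10 highest members were the same. Mrps16 and Mrpl42 then left the 10 highest, and Mrpl52 was no longer first. The exon unions of Mrps16, Mrpl42 and Mrpl52 are 2875, 3682 and 1109 bases, against deposited lengths of 566, 666 and 412.

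**Figure D5:**
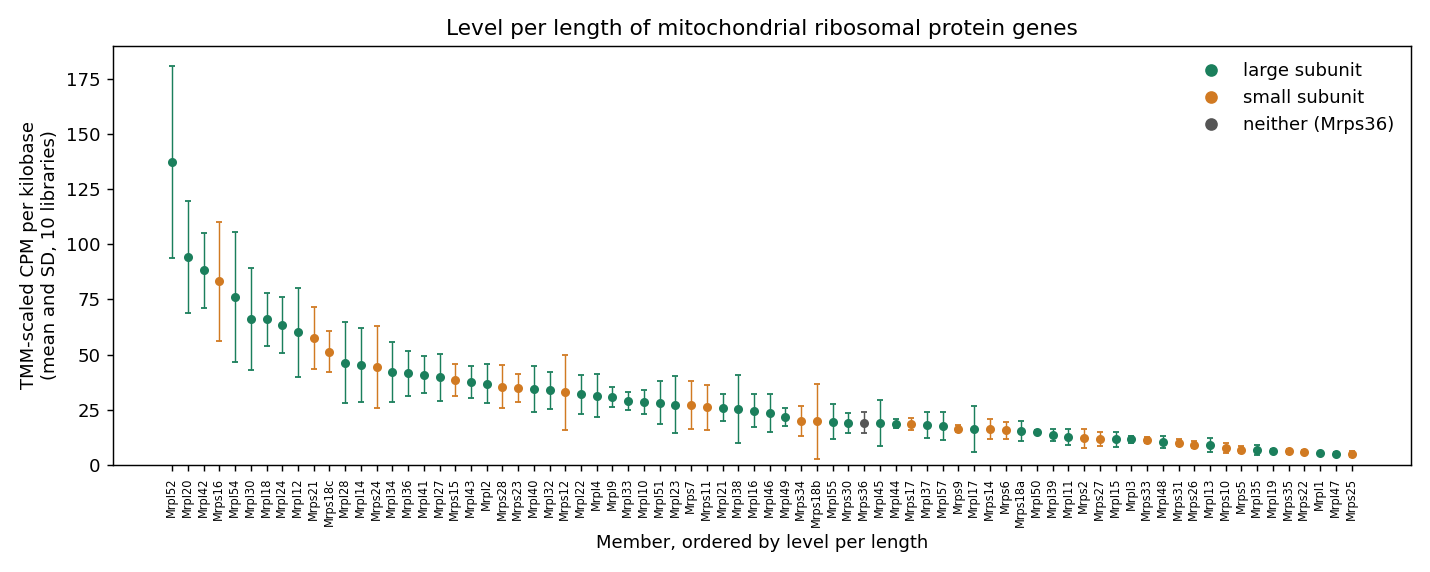
Points give the mean level per kilobase of deposited length over the 10 libraries and bars the SD, for the 76 members in order, colored by subunit. Mrpl52 leads at 137 and Mrps25 is last at 4.99, and members of both subunits occur along the whole order.

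Lower levels in MM occurred at both ends of this order. Mrpl52 was at 103, 56.4, 56.4, 50.6 and 65.5 CPM in No MM and at 47.0, 46.2, 57.3, 43.6 and 39.9 CPM in MM, with a log2 fold change of -0.50 (SE 0.20, unadjusted p = 0.0315 in edgeR). Mrpl20 had a log2 fold change of -0.42 (SE 0.19) and Mrps25 of -0.44 (SE 0.20). Mrps35 had -0.39 (SE 0.16), whereas Mrps22 and Mrpl47 had -0.30 (SE 0.17) and -0.28 (SE 0.16) and did not pass at an unadjusted p under 0.05.

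The counts were close between the subunits, and the difference between them was not tested. Of the large-subunit members 31 of 49 were lower at an unadjusted p under 0.05 in edgeR, with a median log2 fold change of -0.44. Of the small-subunit members 17 of 26 were lower, with a median of -0.45. Over all genes tested, 10.3% were lower and the median was -0.027. The summed counts of large-subunit over small-subunit members gave a ratio of 2.43 ± 0.0716 in No MM and 2.43 ± 0.0332 in MM (mean ± SD, n = 5). The lowest ratios, 2.34 and 2.38, were in No MM 4 and No MM 3, with 2.38 also in MM 6. Without the 5 most abundant members of each subunit the ratio differed between the groups by -0.16 (MM minus No MM), beside -0.0037 with all members.

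The motifs shown above occurred on both sides of the p threshold. Of the 48 members lower at an unadjusted p under 0.05, 40 had a promoter in the table and 17 of these (42.5%) held the ETS letters. Of the other 28 members, 27 had one and 7 (25.9%) held them. NRF1 letters were in 4 members of either set, and YY1 letters in 9 and 1. For 18 of 76 members (23.7%) a protein-coding gene on the other strand started up to 1000 bases before the member, running away from it. The same held for 8.46% of 17389 protein-coding genes. Examples are Mrpl49 with Fau, a cytosolic ribosomal protein gene, Mrps12 with Sars2, the mitochondrial seryl-tRNA synthetase, and Mrpl43 with Peo1, the mitochondrial DNA helicase. Pairs that overlap at their starts, such as Mrpl46 and Mrps11, were not counted. Of the 18, 12 were among the 48 lower members and 6 among the other 28. None of these splits was tested.

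Proteins of the same ribosome that carry other symbols were 6 of 6 below 0. Of these, 2 of 6 were lower at an unadjusted p under 0.05 in edgeR, against 10.3% of all genes tested. Chchd1, a small-subunit protein, was at 81.9, 59.5, 84.7, 80.7 and 54.4 CPM in No MM and at 44.2, 43.6, 54.5, 37.0 and 37.2 CPM in MM, with a log2 fold change of -0.74 (SE 0.18, adjusted p = 0.315). Its highest MM library lay just above its lowest No MM library. Ict1, the large-subunit protein with peptidyl-tRNA hydrolase activity, had a log2 fold change of -0.53 (SE 0.20).

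Among 25 factors that assemble the mitoribosome, 3 were lower and 0 higher at an unadjusted p under 0.05 in edgeR, with a median log2 fold change of -0.25. The share of all genes lower in that fit was 10.3%. Without No MM 3 and No MM 4 it was 3.37%, and 417 of 16600 genes were higher. The counts of this and the following lists are to be read against the share of the same fit. Malsu1, which keeps the immature large subunit from joining, had -0.48 (SE 0.19), and Mrm3, a methyltransferase of the large rRNA, had -0.73 (SE 0.29). Without No MM 3 and No MM 4 the list's median was -0.08, with 0 lower and 1 higher. Among 16 translation factors, 4 were lower and 0 higher, with a median of -0.17, and without these libraries 2 were lower, with a median of -0.14. Taco1, an activator of translation, had -0.54 (SE 0.18), and the elongation factor gene Tufm had -0.68 (SE 0.25).

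Among 17 mitochondrial aminoacyl-tRNA synthetases, 3 were lower and 0 higher, with a median of -0.36. Without No MM 3 and No MM 4, 1 was lower and the median was -0.016. Lars2 had the largest difference at -1.83 (SE 0.64), but it was at 3474 CPM in No MM 4 and at 212 to 736 CPM in the other 9 libraries. Without No MM 3 and No MM 4 its value was -0.69. Fars2 had -0.51 (SE 0.20). Among 8 genes of mitochondrial transcription and rRNA, 0 passed in either direction, with -0.45 (SE 0.22) for Tefm and -0.26 (SE 0.15) for Tfam. The 10 nuclear regulators also had 0 passing in either direction, with a median of 0.15. The regulator subunit gene Gabpb2 had 0.45 (SE 0.21) and Esrra 0.25 (SE 0.16), and the values of Gabpa, Nrf1 and Yy1 were 0.051, -0.011 and -0.029. The mitochondrial rRNAs were not analysed here.

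The related genes of the cytosolic ribosome and of oxidative phosphorylation were read from the same fit. Of 87 cytosolic ribosomal protein genes, 71 were lower at an unadjusted p under 0.05 in edgeR and 0 were higher, with a median log2 fold change of -0.71. Of 83 nuclear oxidative phosphorylation genes tested, 44 were lower and 0 higher, with a median of -0.46. Without No MM 3 and No MM 4 the medians were -0.57 and -0.56, beside -0.39 for the mitochondrial ribosomal protein genes. On total counts they were -0.32 and -0.12, beside -0.087. The difference between these groups was not tested.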

How the data were processed

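Read counts of 10 osteocyte libraries were used, 5 from control (No MM) and 5 from myeloma-bearing (MM) mice. Per the labels, TruSeq Stranded Total RNA libraries were sequenced as paired ends, checked with FastQC 0.11.5 and aligned with STAR. The counting program, genome build and annotation are not given in the sources used here. Of the member identifiers, 75 of 76 were found in GENCODE M21 (GRCm38) at the same place, 49 with identical bounds.

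The authors deposited raw read counts per gene, and these were analysed. The authors also deposited a normalized signal (counts divided by 1 size factor per library), FPKM values made with their gene length, and log2 fold changes and p-values of their own comparison. None of these other columns was analysed. Genes were filtered with filterByExpr, scaled by TMM and tested for MM against No MM with edgeR 4.0.16 (glmQLFit, glmQLFTest, no covariates) in R 4.3.3. P-values were adjusted by Benjamini-Hochberg over 16186 genes, with a threshold of 0.05. SEs are the log2 fold change divided by the square root of F. A prior count of 2 entered log2 CPM. An exact two-sided permutation test over the mice was run for single members. The fit was also run on simulated counts, with changes larger than the members' median and the same spread in both groups. That run says nothing about changes of the members' size or about unequal spread.

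Alternatives were DESeq2 1.42.0, RLE and upper quartile factors, no filter, at least 10 counts in every library, immunoglobulin genes left out, libraries left out and other denominators or lengths. Total counts without a scaling factor, with and without immunoglobulin genes, were added after seeing the data. The members, gene lists and the rule for named genes were chosen with earlier results of these data known. Members were named for the smallest p, groups that do not overlap, the highest and lowest level per length and the largest and smallest SD, and from each pathway list the 2 genes of smallest p. Mrpl48, Mrpl10, Mrpl41, Mrpl45, Mrps12, Mrpl28, Mrpl12, Mrpl14, the neighboring genes and the regulators other than Gabpb2 and Esrra were named after their values were seen. Between 31099174 and 39466332 reads per library set the depth, and 3 counts corresponded to 0.0709 to 0.114 CPM. Reads of 4 pseudogene rows with member names were left out, and reads shared with such copies or with 27 members' overlapping genes may be misassigned. Protein sequences were not used here.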

Additional observations from a re-analysis of the deposited data

Results flagged for a closer look

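Within groups of 5, 130 sets of values were searched for a library far from the other 4 by Dixon's criterion, and 18 were found. Chance alone gives about 6.5 on average, but the sets share the same libraries and some were added after their values were seen. Comparing these numbers is therefore no test of an excess. The search covered the 20 members named by the rule, the other genes whose fold changes or levels are described above, and the summed levels, shares and lists, and not the remaining members. Genes outside the rule entered it after their values were seen. Among the members' values these were Mrpl52 and Mrpl20 in No MM 1, at 103 and 129 CPM against 50.6 to 65.5 and 70.2 to 82.9 in the other No MM mice. No MM 1 was also apart in Mrpl48 at 75.8 CPM (40.7 to 46.8 in the other No MM mice), Mrpl41 at 49.5 (30.5 to 33.2), Mrpl28 at 102 (38.1 to 52.3) and Mrpl12 at 147 (65.9 to 89.0). In MM 8 they were Mrpl54 at 41.0 CPM (29.2 to 32.2 in the other MM mice), Mrps18b at 15.4 (10.5 to 11.6), Mrpl38 at 29.6 (21.9 to 23.5) and Mrpl45 at 38.0 (29.3 to 31.7), and in MM 10 Mrpl48 at 33.2 (38.3 to 39.8). The members' percent of all counts in No MM 1 was 0.359, against 0.277 to 0.297 in the other No MM mice.

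Among the related lists, mitochondrial aminoacyl-tRNA synthetases summed to 3979 CPM in No MM 4, against 607 to 1087, and Lars2 alone was at 3474 CPM there, against 324 to 736. Mitochondrial transcription genes summed to 105 CPM in MM 7, against 113 to 114 in the other MM mice, and Tefm was at 4.66 CPM in MM 10, against 6.54 to 7.16. Muscle markers summed to 5845 CPM in MM 6, against 631 to 1942, and cell cycle genes to 3671 CPM in No MM 1, against 1849.76 to 2324. What lay behind these values was not tested.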

How the results depend on the processing

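With DESeq2, 207 genes passed at an adjusted p under 0.05 (edgeR 0), 968 were higher at an unadjusted p under 0.05 (edgeR 617) and 1 member passed the adjusted threshold. Without No MM 3 and No MM 4, 560 genes were lower (1664 with all 10 libraries) and 24 members (48). With total counts and no scaling factor, added after seeing the data, 2128 genes were higher, 449 genes and 8 members were lower, and the member median was -0.087. With immunoglobulin genes also left out, 1205 genes were higher, and 878 genes and 20 members were lower. Across the fits without 1 mouse each, 291 to 1276 genes were higher, 939 to 2376 genes were lower and 31 to 54 members were lower, with the fewest members without MM 9 or MM 10 and the most without No MM 5. The difference in the members' share of counts, MM minus No MM, was -0.021 percentage points, -0.066 without immunoglobulin genes and -0.097 with TMM library sizes, and the subunit ratio differed by -0.0037, or by -0.16 without the 5 most abundant members of each subunit. Mrpl1 turned above 0 with DESeq2 (0.0024), without No MM 3 and No MM 4 (0.016), on total counts (0.31, and 0.13 without immunoglobulin genes) and without No MM 3 or MM 10 (range without 1 mouse -0.094 to 0.015). Mrpl33 turned below 0 without No MM 3 and No MM 4 (-0.12) and without No MM 4 (range without 1 mouse -0.031 to 0.13). On total counts Mrpl47 (0.085), Mrps22 (0.057), Mrpl50 (0.28, and 0.10 without immunoglobulin genes) and Mrps9 (0.29, and 0.10) turned above 0. The other 14 of the 20 members named by the rule stayed below 0 in every alternative run. Of the members named after their values were seen, Mrpl10 (0.0089) and Mrpl41 (0.040) were above 0 on total counts. In edgeR, 0 of 18 alternatives gave a member with an adjusted p under 0.05. The cause of these shifts was not tested. No paired analysis was possible because no No MM mouse has the number of an MM mouse and no source used here says which mice would form pairs, although the study calls its comparison paired.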
